A study of Mus musculus with 12 samples.

Results

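The genes described here encode the TGF-beta and BMP signaling pathways: TGF-beta ligands, their receptors and latent binding proteins, BMP, GDF and activin ligands, the receptors for these, extracellular antagonists, Smads, intracellular inhibitors and the Id target genes. They were taken as the rows of the deposited gene count table whose symbol is in a list of 53 genes, and all 53 were found among its 51490 genes. Of these, 51 passed the low-count filter and stand among the 15037 genes tested, and Bmp5 and Bmp7 did not. RNA-seq was done on immortalized mouse embryonic palatal mesenchyme (iMEPM) cells, a line made from a male embryo lacking both copies of Cdkn2a. The cells carried either a scramble shRNA (scramble) or an shRNA against the 3′ UTR of Srsf3 (shSrsf3), and either received no ligand (-PDGF-AA) or were stimulated with PDGF-AA (10 ng/mL) over 1 hr (+PDGF-AA), with 3 biological replicates in each of the 4 groups. Each shRNA was delivered by lentivirus to 1 cell line, selected with puromycin and sorted for high GFP, so that shRNA and line cannot be told apart in any comparison of the lines. All 12 samples share the Cdkn2a deletion and the immortalized state. Before PDGF-AA stimulation the study's methods starve cells of serum, a step that its RNA-seq section does not repeat.

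Ligands of this family are secreted as dimers that bring together type II and type I receptor kinases at the cell surface. The type I receptor phosphorylates receptor-activated Smads, Smad2 and Smad3 for TGF-beta and activins and Smad1, Smad5 and Smad9 for BMPs, which enter the nucleus with Smad4 and act on target genes. In the embryonic palate, Tgfb3 is best known for the fusion of the palatal shelves and BMPs for the growth and bone formation of their mesenchyme, while Smad6, Smad7, Ski and Skil limit the signal inside the cell.

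Depth was 30958870 to 76123207 counts per sample. Srsf3, the targeted gene, read 207, 199 and 212 CPM in the scramble samples without ligand and 221, 215 and 231 CPM with it, against 162, 164 and 161 CPM in the shSrsf3 samples without ligand and 164, 161 and 169.6 CPM with it. The scramble and shSrsf3 samples did not overlap, and edgeR's quasi-likelihood test gave log2 fold changes of -0.34 and -0.43 without and with ligand (adjusted p = 7.95e-06 and 9.54e-07). These values are for RNA. By western blot the study reports a larger loss of Srsf3 protein in the shSrsf3 line. The label of the cells was checked against marker lists. Of 20 palatal mesenchyme markers 18 were tested, and their summed level ran from 35650 to 37395 CPM in the scramble samples and from 31883 to 34158 CPM in the shSrsf3 samples. Tbx22 was at 0 in every sample. Of 8 endothelial markers 4 were tested and the defining genes Tie1 and Cldn5 were at 0 in every sample. The summed endothelial list ran from 30.6 to 33.4 and 31.05 to 34.7 CPM in the scramble groups and from 22.4 to 23.02 and 19.4 to 22.4 CPM in the shSrsf3 groups, without and with ligand, with Tek giving nearly all of it. The 10 epithelial markers summed to 10.4 to 13.5 CPM in scramble and 5.05 to 6.63 CPM in shSrsf3 samples. The summed nerve and glia markers ran from 29.5 to 33.0 CPM in scramble and 21.6 to 26.8 CPM in shSrsf3 samples, blood and macrophage markers from 4.02 to 5.82 and 5.83 to 6.47 CPM, and muscle markers from 0.104 to 0.248 and 0.243 to 0.579 CPM. By log2 fold change, 2 of the 4 tested endothelial markers were higher in shSrsf3 samples without ligand and 3 with it. The 4 tested nerve and glia markers split into 2 higher and 2 lower in each condition. All 4 tested epithelial markers were lower in both conditions. Of 3 tested blood and macrophage markers, 2 were higher without ligand and 3 with it, and the 1 tested muscle marker was higher in both. The sums of these lists differ between the lines, as many of the genes described here do, and their part in the results was not tested.

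Levels were compared between genes as CPM (counts scaled for library size) per kilobase of the canonical transcript. Fstl1, a secreted follistatin-like glycoprotein, stood highest at 485 ± 2.27 CPM per kilobase (SD, n = 3) in scramble samples without ligand, followed by Tgfb3 at 199.9 ± 17.8. Ltbp3 and Ltbp1 came next at 77.5 ± 2.29 and 66.3 ± 3.25 CPM per kilobase, and the ranges of these 4 genes did not overlap between neighbours in the order. In that group 2 genes lay over 100 CPM per kilobase, 25 between 10 and 100, 18 between 1 and 10, 5 between 0.1 and 1, and 3 under 0.1. Bmp2, Bmp5 and Bmp7 made up the lowest class, and Bmp5 and Bmp7 had at most 3 and 2 counts in any sample. Of the 52 pairs of neighbours in the order, 26 overlapped in the range of their 3 samples. The receptor that stood highest was Tgfbr2 at 49.5 ± 0.532 CPM per kilobase, the type II receptor for TGF-beta, while its type I partner Tgfbr1 read 9.08 ± 0.419. By the mean over the 12 samples, the highest gene of a role changed with the transcript taken for the length in 3 of 10 roles: with the longest transcript, an alternative added after seeing the data, Ltbp3 passed Ltbp1, Ski passed Tgif1 and Smad3 passed Smad2.

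**Figure D1:**
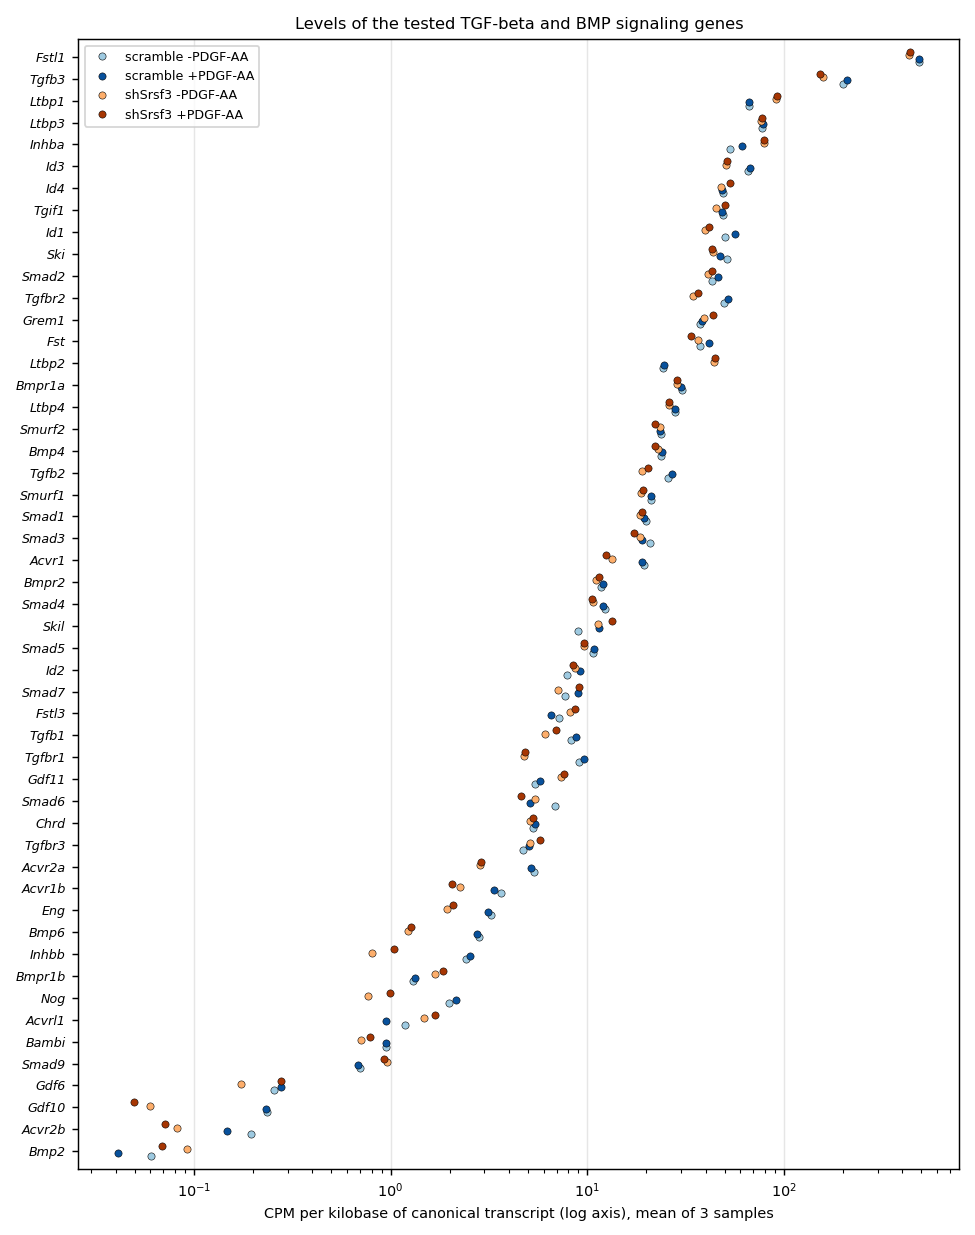
Mean level of the 51 tested genes in each of the 4 groups, in CPM per kilobase of canonical transcript on a log axis, 1 point per group (mean of 3 samples). Fstl1 and Tgfb3 lie above 100 in every group, and the shSrsf3 points of Tgfbr1, Acvr2a, Bmp6, Inhbb, Nog, Gdf10 and Acvr2b lie to the left of their scramble points.

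To ask which of these genes depend on the Srsf3 shRNA, scramble and shSrsf3 samples were compared at the same ligand condition. Without ligand 34 of the 51 tested genes passed edgeR's test at an adjusted p of 0.05 or less, beside 45.9% of all genes tested. Of these, 27 were lower in shSrsf3 samples and 7 higher, beside 23.7% and 22.2% of all genes. Upon ligand stimulation 35 passed (background 41.0%), 23 lower and 12 higher, beside 20.7% and 20.3%. The 5 genes that also reached a 2-fold change, here called DE, were the same in both conditions and all lower: Bmp6, Gdf10, Inhbb, Acvr2b and Nog. The background for DE genes was 5.75% without ligand (2.76% lower, 2.99% higher) and 5.42% with it (2.57% and 2.85%). In these bulk samples fewer cells of one kind and less RNA per cell cannot be told apart.

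The median log2 fold change of the 51 genes was -0.13 without ligand and -0.11 with it, beside -0.016 and -0.010 over all genes. The median size of the change, regardless of direction, was 0.33 and 0.30, beside 0.20 and 0.19. The scramble and shSrsf3 ranges did not overlap for 38 genes without ligand and 41 with it, beside 53.3% and 52.6% of all genes. Of the 38, 10 were higher and 28 lower, beside 26.2% and 27.1% of all genes, and of the 41, 12 were higher and 29 lower, beside 25.5% and 27.1%. Both conditions gave a pass for 29 of the 51 genes (56.9%, beside 33.7% of all genes), each in the same direction. These comparisons share no libraries but rest on the same 2 cell lines and 1 fit. Of the 40 genes that passed in either condition, 35 changed by less than 2-fold in both. The 11 that passed in neither were Bmp2, Bmp4, Bmpr2, Chrd, Id2, Ltbp3, Ltbp4, Smad1, Smad2, Smad7 and Smurf2.

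**Figure D2:**
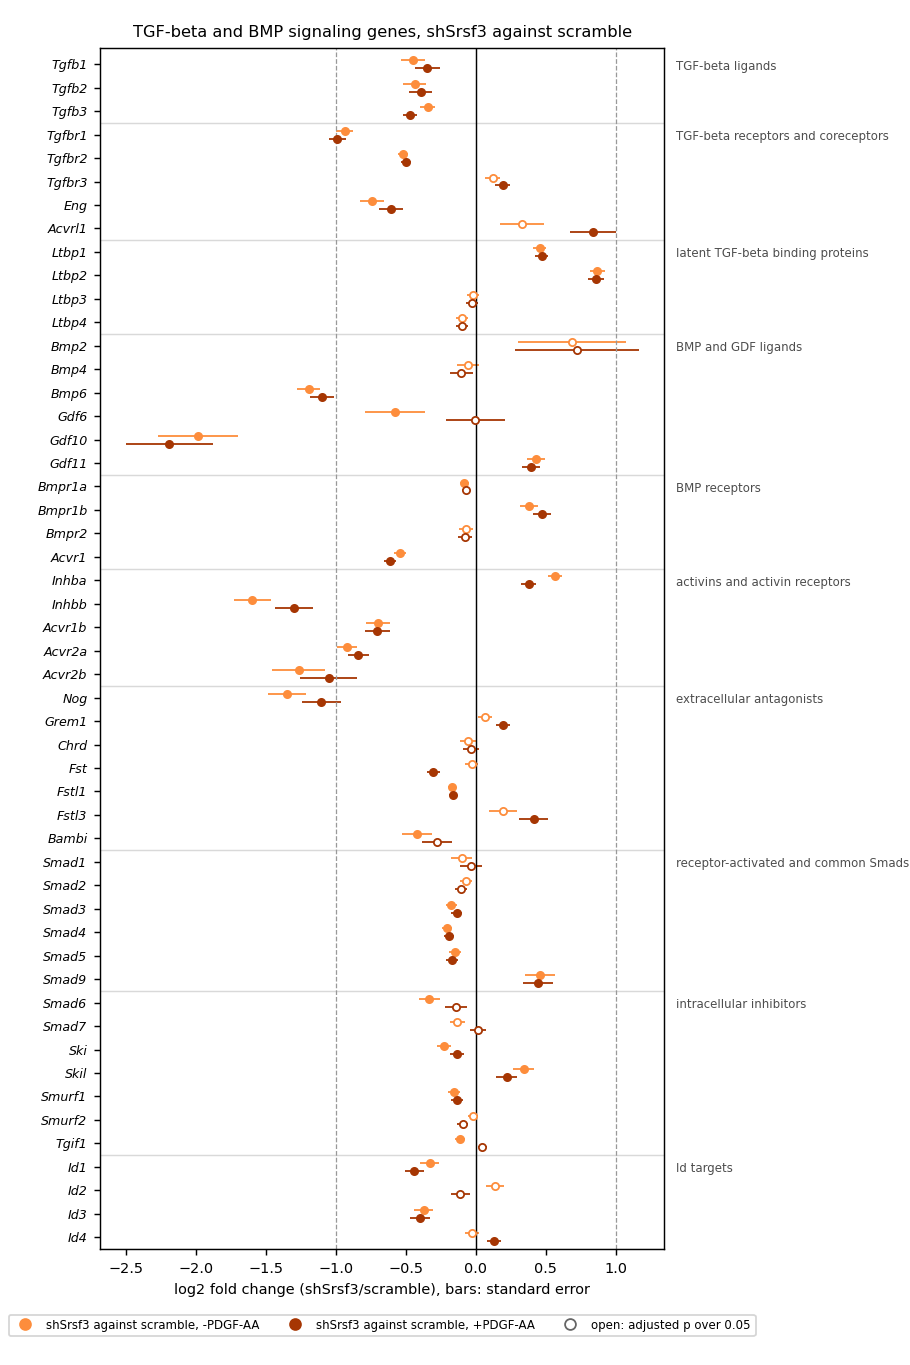
Log2 fold change of each tested gene, shSrsf3 against scramble, without (light) and with (dark) PDGF-AA, with bars for the standard error, filled points for an adjusted p of 0.05 or less and dashed lines at 2-fold. Most filled points lie left of 0, the points of Bmp6, Gdf10, Inhbb, Nog and Acvr2b lie past the left dashed line in both conditions, and no filled point lies past the right one.

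Sequence near the start site was read for all 53 genes from the GRCm39 genome, from 250 bases before to 50 bases after the start of the canonical GENCODE transcript, and searched on both strands for 4 motifs. These were CAGACA and GTCTAGAC, forms of the Smad-binding element, GGCGCC, a GC-rich element bound by BMP Smads, and the serum response element, and none of them contains another. CAGACA was present in 14 of the 53 windows (26.4%), beside 18.9% of the windows of 21751 genes, and GGCGCC in 17 (32.1%), beside 12.4%. GTCTAGAC was in 1, that of Smad7, beside 0.267%, and the serum response element in 0, beside 1.54%. A match is a run of letters in the window and was not linked to binding, and the windows were not matched for GC content. Windows of Skil, a Smad repressor that rose, Tgfbr1, the type I TGF-beta receptor, and Nog, a BMP antagonist, both of which fell, are shown as examples of genes whose level differed between the lines, chosen after matches and values were seen, with the motif in capitals, each 30 bases on the gene's own strand. Other genes of the list also hold a match upstream of the start. Among these, Chrd, Bmpr2, Smad2, Smurf2 and Ltbp4 passed the test in neither shRNA comparison. The positions in the genome are chr3:31148752-31148781 and chr3:31148696-31148725 for Skil (+ strand), chr4:47352977-47353006 for Tgfbr1 (+ strand) and chr11:89193369-89193398 for Nog (- strand), and the motif begins at base -52, -108, -145 and -228 from the start.
Skil CAGACA: cgagggcggcccCAGACAgccggctgagcg
Skil GGCGCC: cccggcggccagGGCGCCcccaggtctggc
Tgfbr1 GGCGCC: ggctggagtaaaGGCGCCcagcggtgaggg
Nog CAGACA: gaccctgcgagaCAGACAaaccggtgccaa

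The 3 TGF-beta ligands were lower in shSrsf3 samples in both conditions. Tgfb3 (ENSMUSG00000021253.9, GRCm39 chr12:86102756-86126301, - strand), the most abundant of them, read 898, 840.1 and 751 CPM in the scramble samples without ligand and 883, 859.6 and 882 CPM with it, against 659, 637 and 669 CPM in the shSrsf3 samples without ligand and 639.5, 649 and 607 CPM with it. No shSrsf3 sample reached the lowest scramble sample, and the log2 fold change was -0.34 ± 0.052 (SE) without ligand and -0.47 ± 0.052 with it, with edgeR adjusted p values of 1.39e-04 and 8.81e-06. Tgfb1 changed by -0.45 and -0.35 and Tgfb2 by -0.44 and -0.39 on the log2 scale without and with ligand (edgeR adjusted p = 0.00106 and 0.00711 for Tgfb1 and 6.36e-04 and 0.00153 for Tgfb2). Tgfb3 made up 85.5 ± 0.518% of their summed CPM per kilobase (SD, n = 3) in scramble and 86.3 ± 0.129% in shSrsf3 samples without ligand, and 85.5 ± 0.598% and 84.7 ± 0.448% with it. Replicate 3 of the unstimulated scramble group gave that group's lowest Tgfb3 and Tgfb2 (111.7 CPM against 149.2 and 142.8 for Tgfb2). The study lists a lower Salmon mapping rate for the other replicates of that group than for this one, and the part of mapping in these values was not tested.

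Among the TGF-beta receptors, Tgfbr1, Tgfbr2 and the coreceptor Eng were lower in shSrsf3 samples in both conditions. Tgfbr1 (ENSMUSG00000007613.17, chr4:47353134-47414931, + strand), the type I receptor kinase, read 55.1, 53.8 and 50.3 CPM in the scramble samples without ligand and 56.3, 57.8 and 55.0 CPM with it, against 26.1, 27.7 and 29.6 CPM in the shSrsf3 samples without ligand and 30.8, 27.9 and 26.5 CPM with it. The 6 shSrsf3 samples lay far below the 6 scramble samples. Its log2 fold change was -0.94 ± 0.059 (SE) without ligand and -0.99 ± 0.060 with it, with edgeR adjusted p values of 3.64e-08 and 2.73e-08. These are fold changes of 0.523 and 0.504, just short of the 2-fold limit for DE genes. With ligand the limit was passed when scramble +PDGF-AA replicate 3 or shSrsf3 +PDGF-AA replicate 1 was left out (log2 fold changes of -1.006 and -1.05).

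Tgfbr2 (ENSMUSG00000032440.15, chr9:115913361-116004800, - strand), the type II receptor that Tgfbr1 joins, read 423, 423 and 415 CPM in the scramble samples without ligand and 434, 444 and 446 CPM with it, against 283, 302 and 295 CPM in the shSrsf3 samples without ligand and 321, 305 and 311 CPM with it. The groups did not overlap, and the log2 fold change was -0.52 ± 0.034 (SE) without ligand and -0.50 ± 0.034 with it, with edgeR adjusted p values of 5.36e-08 and 8.23e-08. Eng, endoglin, a coreceptor that endothelial cells also make, changed by -0.74 and -0.60 (edgeR adjusted p = 9.55e-06 and 8.43e-05). Beside it, Tek, another endothelial gene and the only abundant one on that list, averaged 30.6 ± 1.46 and 32.4 ± 1.90 CPM in scramble and 20.0 ± 0.421 and 18.03 ± 1.70 CPM in shSrsf3 samples, while Cdh5 averaged 0.274 ± 0.0541 and 0.206 ± 0.0850 against 1.37 ± 0.0704 and 1.48 ± 0.113 CPM. Betaglycan, encoded by Tgfbr3, and the type I receptor Acvrl1 passed the test only with ligand, at log2 fold changes of 0.19 and 0.84 (edgeR adjusted p = 0.0114 and 0.00107). Without ligand the values were 0.12 and 0.33, and the interaction test did not pass for either (0.905 and 0.874, edgeR adjusted p). Without ligand Tgfbr3 passed when scramble -PDGF-AA replicate 3 was left out and Acvrl1 when scramble +PDGF-AA replicate 3 was. The Tgfbr3 call with ligand was lost without scramble +PDGF-AA replicate 1 or shSrsf3 +PDGF-AA replicate 1, with a highest adjusted p of 0.0720.

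The share of Tgfbr1 among the 6 tested type I receptors (with Acvrl1, Acvr1, Acvr1b, Bmpr1a and Bmpr1b) was lower in shSrsf3 samples. It made up 14.01 ± 0.506% of their summed CPM per kilobase in scramble and 9.14 ± 0.509% in shSrsf3 samples without ligand, and 15.01 ± 0.523% and 9.43 ± 0.603% with it (SD, n = 3). The share of Bmpr1a, a type I receptor for BMPs, went from 46.6 ± 0.689% to 54.9 ± 1.00% and from 46.5 ± 0.561% to 55.4 ± 0.366%. The scramble and shSrsf3 ranges of both shares did not overlap, and both are parts of the same total. Bmpr1a itself read 30.2 CPM per kilobase in scramble and 28.6 in shSrsf3 samples without ligand, and 29.9 and 28.5 with it. Its share thus grew although its own level did not.

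The latent TGF-beta binding proteins are matrix proteins, of which Ltbp1, Ltbp3 and Ltbp4 bind latent TGF-beta and Ltbp2, despite its name, does not. Ltbp1 and Ltbp2 rose, and Ltbp3 and Ltbp4 did not pass. Ltbp2 (ENSMUSG00000002020.16, chr12:84829986-84923306, - strand) read 159.8, 155 and 179 CPM in the scramble samples without ligand and 172, 164 and 164 CPM with it, against 308, 279.7 and 314 CPM in the shSrsf3 samples without ligand and 299, 307 and 302 CPM with it. Every shSrsf3 sample stood above every scramble sample. The log2 fold change was 0.87 ± 0.055 (SE) without ligand and 0.86 ± 0.055 with it, with edgeR adjusted p values of 3.45e-08 and 3.99e-08. This was the largest rise among the 51 tested genes in both conditions. Ltbp1 (ENSMUSG00000001870.18, chr17:75312519-75699507, + strand) read 356, 362 and 389.8 CPM in the scramble samples without ligand and 383, 346 and 386 CPM with it, against 517, 488 and 517 CPM in the shSrsf3 samples without ligand and 516, 505 and 526 CPM with it. Its groups did not overlap either, at log2 fold changes of 0.46 and 0.47 (edgeR adjusted p = 4.14e-06 and 3.29e-06). Ltbp3 gave -0.019 and -0.024 and Ltbp4 -0.10 and -0.098 (edgeR adjusted p = 0.758 and 0.699 for Ltbp3 and 0.0816 and 0.0961 for Ltbp4). Ltbp2 went from 12.4 ± 0.520% to 18.6 ± 0.262% of the summed CPM per kilobase of the 4 genes without ligand, and from 12.4 ± 0.183% to 18.6 ± 0.167% with it.

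Of the 6 tested BMP and GDF ligands, Bmp6 and Gdf10 fell and Gdf11 rose in both conditions, Gdf6 passed in 1 condition, and Bmp4 and Bmp2 did not pass in either condition. Bmp6 (ENSMUSG00000039004.8, chr13:38529065-38684280, + strand), a BMP with a role in bone and iron regulation, read 10.1, 10.9 and 9.43 CPM in the scramble samples without ligand and 9.72, 10.2 and 9.60 CPM with it, against 4.74, 4.54 and 3.89 CPM in the shSrsf3 samples without ligand and 4.73, 4.65 and 4.38 CPM with it. The highest shSrsf3 sample was below every scramble sample by a wide margin, and the log2 fold change was -1.19 ± 0.081 (SE) without ligand and -1.10 ± 0.085 with it, with edgeR adjusted p values of 7.20e-08 and 2.57e-07. Gdf10 (ENSMUSG00000021943.9, chr14:33645273-33659940, + strand), also called BMP3B, was rare, with 7 to 108 counts per sample. It read 1.22, 1.22 and 1.409 CPM in the scramble samples without ligand and 1.79, 1.10 and 0.912 CPM with it, against 0.311, 0.319 and 0.349 CPM in the shSrsf3 samples without ligand and 0.374, 0.217 and 0.225 CPM with it. The groups did not overlap. The log2 fold change was -1.98 ± 0.28 (SE) without ligand and -2.19 ± 0.31 with it, with edgeR adjusted p values of 7.60e-05 and 8.01e-05. This was the largest change among the 51 tested genes in both conditions.

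Bmp4 (ENSMUSG00000021835.17, chr14:46620250-46636745, - strand), the most abundant BMP in these cells and a ligand for palatal growth, read 68.9, 68.1 and 61.1 CPM in the scramble samples without ligand and 62.5, 69.6 and 68.0 CPM with it, against 65.0, 63.7 and 62.0 CPM in the shSrsf3 samples without ligand and 66.7, 67.2 and 52.3 CPM with it. Its groups overlapped, and the log2 fold changes of -0.054 and -0.10 had edgeR adjusted p values of 0.619 and 0.345. Gdf11, a ligand that signals through Smad2 and Smad3, rose by 0.43 and 0.40 (edgeR adjusted p = 1.23e-04 and 2.72e-04). Gdf6 passed without ligand only (-0.58, edgeR adjusted p = 0.0417), at 24 to 62 counts per sample. That call was lost in 16 of 21 other settings, among them the omission of any single library except scramble -PDGF-AA replicate 1 or shSrsf3 +PDGF-AA replicate 3, with a highest adjusted p of 0.154. Bmp2 had 5 to 28 counts per sample and log2 fold changes of 0.69 and 0.72 with standard errors of 0.39 and 0.44, and passed in neither condition.

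**Figure D3:**
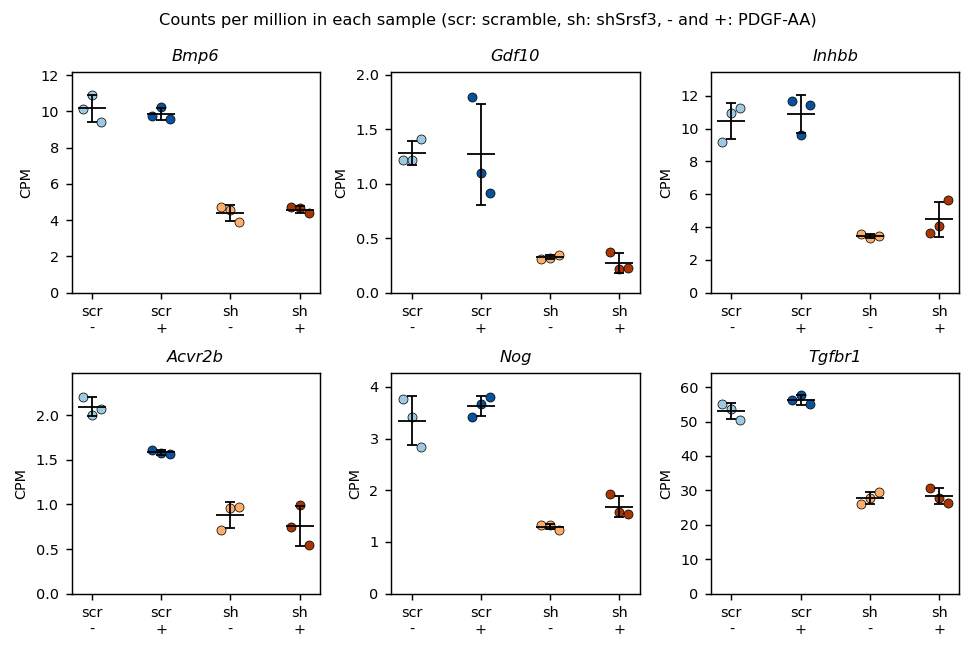
CPM in each of the 12 samples (points) with the group mean and SD (bars) for the 5 DE genes and Tgfbr1, on axes that start at 0. In all 6 panels the shSrsf3 samples lie below every scramble sample, with and without PDGF-AA.

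Of the 4 BMP receptors Acvr1 fell and Bmpr1b rose in both conditions. Acvr1 (ENSMUSG00000026836.17, chr2:58278656-58457770, - strand), the type I receptor ALK2, read 73.2, 70.6 and 71.9 CPM in the scramble samples without ligand and 72.0, 69.3 and 70.9 CPM with it, against 50.6, 46.8 and 50.8 CPM in the shSrsf3 samples without ligand and 45.0, 48.0 and 45.8 CPM with it. Scramble and shSrsf3 samples did not overlap, at a log2 fold change of -0.54 ± 0.042 (SE) without ligand and -0.61 ± 0.043 with it, with edgeR adjusted p values of 2.57e-07 and 9.97e-08. Bmpr1b, another type I receptor, rose by 0.38 and 0.48 (edgeR adjusted p = 2.09e-04 and 3.59e-05). The type II receptor Bmpr2 gave -0.069 and -0.078 (0.281 and 0.242, edgeR adjusted p), and passed without ligand when shSrsf3 -PDGF-AA replicate 3 was left out.

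Bmpr1a (ENSMUSG00000021796.17, chr14:34132687-34225379, - strand), the highest of these receptors per kilobase, read 182, 184 and 184 CPM in the scramble samples without ligand and 183, 177 and 184 CPM with it, against 172, 176 and 172 CPM in the shSrsf3 samples without ligand and 175, 173 and 171 CPM with it. The ranges did not overlap, but the difference was small. The log2 fold change was -0.081 ± 0.031 without ligand (edgeR adjusted p = 0.0462) and -0.068 ± 0.031 with it (adjusted p = 0.0955). The first call was lost in 18 of 21 other settings, among them the omission of any single library except scramble +PDGF-AA replicate 2, and over all 21 the log2 fold change ran from -0.090 to -0.058 with a highest adjusted p of 0.238.

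The activin subunits moved apart. Inhba (ENSMUSG00000041324.16, chr13:16186373-16206206, + strand), which forms activin A, read 345, 325 and 293 CPM in the scramble samples without ligand and 360.0, 368 and 379 CPM with it, against 456, 474 and 495 CPM in the shSrsf3 samples without ligand and 478, 479 and 482 CPM with it. The shSrsf3 samples were all higher than the scramble samples, and the log2 fold change was 0.57 ± 0.051 (SE) without ligand and 0.38 ± 0.051 with it, with edgeR adjusted p values of 1.07e-06 and 4.74e-05. Inhbb (ENSMUSG00000037035.7, chr1:119343193-119350021, - strand), which forms activin B, read 9.20, 10.9 and 11.3 CPM in the scramble samples without ligand and 11.7, 9.59 and 11.4 CPM with it, against 3.60, 3.34 and 3.46 CPM in the shSrsf3 samples without ligand and 3.66, 4.09 and 5.63 CPM with it. Here every shSrsf3 sample was lower, at -1.59 ± 0.13 (SE) without ligand and -1.30 ± 0.13 with it, with edgeR adjusted p values of 4.31e-07 and 4.21e-06. For each Inhbb count there were 31.1 ± 5.84 Inhba counts in scramble samples and 137 ± 9.06 in shSrsf3 samples without ligand (SD, n = 3), and 34.2 ± 3.82 and 111 ± 23.1 with it. The scramble and shSrsf3 ranges of this ratio did not overlap in either condition.

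The 3 activin receptors all fell. Acvr2a (ENSMUSG00000052155.7, chr2:48703743-48793283, + strand), a type II receptor for activins and BMPs, read 30.7, 31.3 and 35.2 CPM in the scramble samples without ligand and 30.99, 30.7 and 32.1 CPM with it, against 17.4, 16.40 and 17.8 CPM in the shSrsf3 samples without ligand and 18.5, 18.8 and 15.03 CPM with it. The groups stood well apart, at a log2 fold change of -0.92 ± 0.073 (SE) without ligand and -0.84 ± 0.075 with it, with edgeR adjusted p values of 2.94e-07 and 1.03e-06. Acvr2b (ENSMUSG00000061393.16, chr9:119231103-119271213, + strand), the other type II receptor, stood at 0.195 ± 0.00985 CPM per kilobase in scramble samples without ligand, against 5.34 ± 0.407 for Acvr2a, and had 17 to 125 counts per sample. It read 2.21, 2.00 and 2.07 CPM in the scramble samples without ligand and 1.61, 1.58 and 1.56 CPM with it, against 0.712, 0.957 and 0.966 CPM in the shSrsf3 samples without ligand and 0.748, 0.991 and 0.547 CPM with it. No shSrsf3 sample reached a scramble sample. The log2 fold change was -1.27 ± 0.19 (SE) without ligand and -1.05 ± 0.21 with it, with edgeR adjusted p values of 1.15e-04 and 0.00103. With ligand it fell short of 2-fold without shSrsf3 +PDGF-AA replicate 3 (-0.87) and with libraries thinned to equal depth (-0.93). In both settings it stayed past the test. Acvr1b, the type I receptor for activins, changed by -0.70 and -0.70 (edgeR adjusted p = 1.67e-05 and 2.49e-05).

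Of the 7 extracellular antagonists, Nog and Fstl1 were lower in both conditions and Chrd in neither. Nog (ENSMUSG00000048616.5, chr11:89191464-89193158, - strand), noggin, which binds BMPs and keeps them from their receptors, read 3.77, 3.43 and 2.83 CPM in the scramble samples without ligand and 3.42, 3.67 and 3.80 CPM with it, against 1.33, 1.32 and 1.23 CPM in the shSrsf3 samples without ligand and 1.92, 1.58 and 1.54 CPM with it. All shSrsf3 samples were below all scramble samples, and the log2 fold change was -1.35 ± 0.14 (SE) without ligand and -1.10 ± 0.14 with it, with edgeR adjusted p values of 3.41e-06 and 2.61e-05. Chrd, chordin, which acts in the same way, gave -0.054 and -0.032 (edgeR adjusted p = 0.464 and 0.690). Fstl1 (ENSMUSG00000022816.13, chr16:37597105-37656876, + strand) read 1893, 1899.6 and 1910.2 CPM in the scramble samples without ligand and 1957, 1875 and 1918 CPM with it, against 1702, 1653 and 1727 CPM in the shSrsf3 samples without ligand and 1733, 1735 and 1664 CPM with it. No shSrsf3 sample reached a scramble sample, and the log2 fold changes were -0.17 and -0.16 (edgeR adjusted p = 4.00e-04 and 4.77e-04).

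Follistatin, encoded by Fst, which traps activins, was lower with ligand only (-0.30, edgeR adjusted p = 1.42e-04, against -0.028 and 0.653 without). Bambi, a receptor decoy, was lower without ligand only (-0.42, adjusted p = 0.00599, against -0.28 and 0.0595 with it, edgeR). Without the 3 libraries of lower mapping rate (replicates 1 and 2 of scramble -PDGF-AA, with replicate 2 of scramble +PDGF-AA), the Bambi call was lost (-0.31, adjusted p = 0.0846). The Bambi call was also lost with libraries thinned to equal depth (-0.42, edgeR adjusted p = 0.0575). With ligand Bambi passed when shSrsf3 +PDGF-AA replicate 1 was left out (-0.34, adjusted p = 0.0479, edgeR). Gremlin, encoded by Grem1, and Fstl3 were higher with ligand only, at 0.20 and 0.41 (edgeR adjusted p = 0.00727 and 0.00493), against 0.069 and 0.20 without, where Fstl3 passed when scramble -PDGF-AA replicate 2 was left out. For none of these 4 did the interaction test pass (edgeR adjusted p = 0.421, 0.905, 0.874 and 0.882).

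Of the 6 receptor-activated and common Smads, Smad3, Smad4 and Smad5 fell and Smad9 rose in both conditions, each by less than 1.5-fold. Smad4 (ENSMUSG00000024515.15, chr18:73769343-73836915, - strand), the partner shared by both arms, read 78.6, 75.7 and 74.3 CPM in the scramble samples without ligand and 73.1, 74.3 and 76.6 CPM with it, against 65.8, 66.8 and 66.2 CPM in the shSrsf3 samples without ligand and 66.3, 64.4 and 65.3 CPM with it. The shSrsf3 samples were all below the scramble samples, at a log2 fold change of -0.20 ± 0.036 (SE) without ligand and -0.19 ± 0.036 with it, with edgeR adjusted p values of 4.83e-04 and 7.79e-04. Smad2 (ENSMUSG00000024563.18, chr18:76374327-76445180, + strand) read 74.8, 70.2 and 68.7 CPM in the scramble samples without ligand and 77.5, 72.6 and 78.4 CPM with it, against 66.7, 69.4 and 67.5 CPM in the shSrsf3 samples without ligand and 71.2, 69.2 and 72.3 CPM with it. Its groups overlapped without ligand, and neither condition passed (-0.068 and -0.10, edgeR adjusted p = 0.222 and 0.0750), although Smad2 passed with ligand when scramble +PDGF-AA replicate 2 was left out. Smad3 changed by -0.17 and -0.14 and Smad5 by -0.15 and -0.17 on the log2 scale (edgeR adjusted p = 0.00296 and 0.0152 for Smad3 and 0.0157 and 0.00808 for Smad5), and Smad1 gave -0.099 and -0.034 and passed without ligand when scramble -PDGF-AA replicate 3 was left out. The Smad3 call with ligand was lost without scramble +PDGF-AA replicate 1, shSrsf3 +PDGF-AA replicate 1 or replicate 2 (highest adjusted p 0.0658), and the Smad5 call without ligand was lost without scramble -PDGF-AA replicate 3 or shSrsf3 -PDGF-AA replicate 1 (highest adjusted p 0.0785). The Smad5 call without ligand was also lost with libraries thinned to equal depth (-0.11, edgeR adjusted p = 0.0707). Smad9, the rarest BMP Smad, rose by 0.46 and 0.45 (edgeR adjusted p = 0.00311 and 0.00471). With ligand its shSrsf3 samples read 5.56, 5.51 and 4.02 CPM, against 3.57, 3.77 and 3.76 CPM in the scramble samples. Its share of the summed CPM per kilobase of Smad1, Smad5 and Smad9 went from 2.24 ± 0.167% to 3.30 ± 0.129% without ligand. With ligand the share went from 2.21 ± 0.0337% to 3.15 ± 0.570%.

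Among the intracellular inhibitors, Skil rose while Ski and Smurf1 fell, each by less than 1.5-fold. Skil (ENSMUSG00000027660.18, chr3:31148816-31176740, + strand), also called SnoN, a repressor that Smad signaling both induces and degrades, read 62.6, 63.6 and 61.1 CPM in the scramble samples without ligand and 79.4, 79.4 and 80.9 CPM with it, against 70.0, 77.5 and 90.6 CPM in the shSrsf3 samples without ligand and 92.6, 88.2 and 98.7 CPM with it. The shSrsf3 samples lay above the scramble samples in both conditions, and the 3 shSrsf3 samples without ligand were spread widely. The log2 fold change was 0.34 ± 0.073 (SE) without ligand and 0.22 ± 0.072 with it, with edgeR adjusted p values of 0.00172 and 0.0255. With ligand the call was lost without any one of the 3 scramble samples or shSrsf3 replicates 1 or 3 of that condition, where the highest adjusted p was 0.101.

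Ski changed by -0.23 and -0.13 and Smurf1, a ubiquitin ligase for BMP Smads and receptors, by -0.16 and -0.13 (edgeR adjusted p = 0.00174 and 0.0412 for Ski and 0.00877 and 0.0250 for Smurf1). With ligand both calls depended on single libraries. Ski lost its call without scramble replicate 2 or 3, any shSrsf3 sample of that condition, or shSrsf3 -PDGF-AA replicate 1 or 2 (highest adjusted p 0.151), and Smurf1 without scramble or shSrsf3 replicate 1, scramble replicate 3 or shSrsf3 replicate 2 (0.112). Without ligand Smurf1 lost its call without scramble replicate 1 (0.0510).

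Smad6 (ENSMUSG00000036867.9, chr9:63860341-63929793, - strand), the inhibitory Smad of the BMP arm, read 22.6, 20.8 and 19.3 CPM in the scramble samples without ligand and 16.1, 15.6 and 15.02 CPM with it, against 16.9, 14.97 and 18.04 CPM in the shSrsf3 samples without ligand and 14.9, 14.6 and 12.8 CPM with it. The ranges did not overlap in either condition. The log2 fold change was -0.33 without ligand (edgeR adjusted p = 0.00305) and -0.14 with it (adjusted p = 0.180). Without the 3 libraries of lower mapping rate the first value was -0.23 and did not pass (adjusted p = 0.0826). Smad7 (ENSMUSG00000025880.14, chr18:75500374-75529006, + strand), which turns receptors over in both arms, read 34.9, 35.7 and 33.8 CPM in the scramble samples without ligand and 38.8, 44.1 and 39.1 CPM with it, against 30.8, 30.8 and 34.0 CPM in the shSrsf3 samples without ligand and 40.9, 41.2 and 41.4 CPM with it. Its groups overlapped and neither condition passed (-0.13 and 0.017, edgeR adjusted p = 0.0624 and 0.830). Without ligand it passed when shSrsf3 -PDGF-AA replicate 3 or scramble +PDGF-AA replicate 2 was left out (-0.17 and -0.13). It also passed there with libraries thinned to equal depth (-0.20, edgeR adjusted p = 0.0138). Tgif1 (ENSMUSG00000047407.19, chr17:71151192-71160541, - strand), a homeodomain repressor of Smad2, read 79.3, 81.9 and 80.1 CPM in the scramble samples without ligand and 78.5, 80.3 and 78.9 CPM with it, against 73.3, 74.9 and 75.1 CPM in the shSrsf3 samples without ligand and 80.9, 80.2 and 84.9 CPM with it. It was lower without ligand (-0.11, edgeR adjusted p = 0.0188) and overlapped with it (0.049, 0.298). The first call was lost without scramble -PDGF-AA replicate 2 or shSrsf3 -PDGF-AA replicate 1 (-0.097 and -0.10, adjusted p = 0.0791 and 0.0716).

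Of the 4 Id genes, direct targets of BMP signaling, Id3 and Id1 fell. Id3 (ENSMUSG00000007872.5, chr4:135870808-135873066, + strand) read 84.5, 87.7 and 81.2 CPM in the scramble samples without ligand and 89.3, 89.0 and 81.1 CPM with it, against 68.5, 64.4 and 62.8 CPM in the shSrsf3 samples without ligand and 71.2, 68.0 and 57.7 CPM with it. The 6 shSrsf3 samples lay below all 6 scramble samples, and the log2 fold change was -0.37 ± 0.069 (SE) without ligand and -0.40 ± 0.069 with it, with edgeR adjusted p values of 6.23e-04 and 4.18e-04. Id1 changed by -0.33 and -0.44 (edgeR adjusted p = 0.00146 and 1.76e-04), and without the 3 libraries of lower mapping rate its value without ligand was -0.23 and did not pass (adjusted p = 0.0508). Id2 passed in neither condition (0.14 and -0.11, edgeR adjusted p = 0.0917 and 0.212), but passed without ligand when shSrsf3 replicate 3 of either condition was left out. Id4 was higher with ligand only (0.13, edgeR adjusted p = 0.0445), a call lost in 9 of 21 settings, among them the omission of scramble +PDGF-AA replicate 1 or 3, shSrsf3 +PDGF-AA replicate 2 or 3, or shSrsf3 -PDGF-AA replicate 1 or 2 (highest adjusted p 0.167).

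The other comparison asked which of these genes respond to 1 hr of PDGF-AA within each line, and it uses the same 12 samples as the shRNA comparisons. In scramble cells 4 of the 51 genes passed edgeR's test, 3 higher and 1 lower, beside 4.04% of all genes tested (2.00% higher, 2.04% lower), and 11 had an unadjusted p under 0.05, beside 17.6%. None was DE, beside 0.200% of all genes. Stimulated and unstimulated samples did not overlap for 7 genes that were higher and 4 that were lower, beside 8.92% and 9.84% of all genes. In shSrsf3 cells 1 gene passed and was higher, beside 0.565% of all genes (0.426% higher, 0.140% lower), 16 had an unadjusted p under 0.05, beside 9.44%, and none was DE, beside 0.0399%. There 11 genes were higher and 4 lower without overlap, beside 8.59% and 9.42%. DESeq2 called 7 genes in scramble and 2 in shSrsf3 cells, beside 6.54% and 1.52% of all genes to which it gave an adjusted p. The median log2 fold change of the 51 genes was 0.015 in scramble and 0.033 in shSrsf3 cells, beside -0.0096 and -0.0044 over all genes.

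Smad7 passed in both lines. Its level went from 34.8 ± 0.961 to 40.7 ± 2.99 CPM (SD, n = 3) in scramble and from 31.9 ± 1.87 to 41.2 ± 0.285 CPM in shSrsf3 cells, and every stimulated sample was above every unstimulated sample of its line. The log2 fold changes were 0.22 ± 0.053 (SE) and 0.37 ± 0.054 (edgeR adjusted p = 0.0318 and 0.00610), and the interaction test did not pass (adjusted p = 0.874). In scramble cells the call was lost without -PDGF-AA replicate 1 or 2 or +PDGF-AA replicate 2 or 3 (log2 fold changes of 0.16 to 0.25). It was also lost there with libraries thinned to equal depth (0.20, edgeR adjusted p = 0.0903) and with the 6 samples compared only (0.23, 0.0999). In shSrsf3 cells the call was lost without -PDGF-AA replicate 1 or 2 (0.35 for each).

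Skil, Inhba and Smad6 passed in scramble cells. Skil went from 62.4 ± 1.26 to 79.9 ± 0.865 CPM, with tight replicates that did not overlap, at a log2 fold change of 0.36 ± 0.073 (edgeR adjusted p = 0.0136). In shSrsf3 cells it went from 79.3 ± 10.4 to 93.2 ± 5.27 CPM, with groups that overlapped (0.23, adjusted p = 0.247). Inhba went from 321 ± 26.03 to 369 ± 9.67 CPM in scramble cells (0.20, edgeR adjusted p = 0.0437) and read 475 ± 19.6 and 479.7 ± 2.14 CPM in shSrsf3 cells (0.014, adjusted p = 0.971). Smad6 fell from 20.9 ± 1.64 to 15.6 ± 0.545 CPM in scramble cells (-0.42, edgeR adjusted p = 0.00733) and read 16.6 ± 1.55 and 14.1 ± 1.14 CPM in shSrsf3 cells (-0.23, adjusted p = 0.325), without overlap in either line. The interaction test did not pass for any of the 3 (edgeR adjusted p = 0.882, 0.874 and 0.874).

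In scramble cells the count of 4 dropped to 1 when scramble +PDGF-AA replicate 3 was omitted, and to 2 when replicate 2 of either scramble group was. The Inhba call was lost in 10 of 21 settings, among them the omission of scramble -PDGF-AA replicate 2, any scramble +PDGF-AA sample, or replicate 1 or 2 of either shSrsf3 group (log2 fold changes of 0.18 to 0.22). The Skil call was lost without scramble +PDGF-AA replicate 3 (0.35, adjusted p = 0.0669). Without the 3 libraries of lower mapping rate Smad6, Smad7 and Skil no longer passed (-0.31, 0.20 and 0.39), and Tgfb2, Tgfb3, Fst and Smad3 passed instead. Fst also passed without scramble -PDGF-AA replicate 1, Ski without scramble -PDGF-AA replicate 3 and Id2 without shSrsf3 +PDGF-AA replicate 3. In shSrsf3 cells the count of 1 was 2 without shSrsf3 -PDGF-AA replicate 3, where Skil passed (0.34, adjusted p = 0.0156), and 0 without replicate 1 or 2 of that group. Leaving out the 3 libraries of lower mapping rate keeps 1 unstimulated scramble sample, and its variation is assumed to equal that of the other groups.

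The ratio of the inhibitory Smads was higher in stimulated samples. For each Smad6 count there were 1.67 ± 0.109 Smad7 counts in unstimulated and 2.61 ± 0.205 in stimulated scramble samples (SD, n = 3), and 1.92 ± 0.122 and 2.93 ± 0.265 in shSrsf3 samples. The stimulated and unstimulated ranges did not overlap in either line. This ratio was chosen after its values were seen and was not tested.

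**Figure D4:**
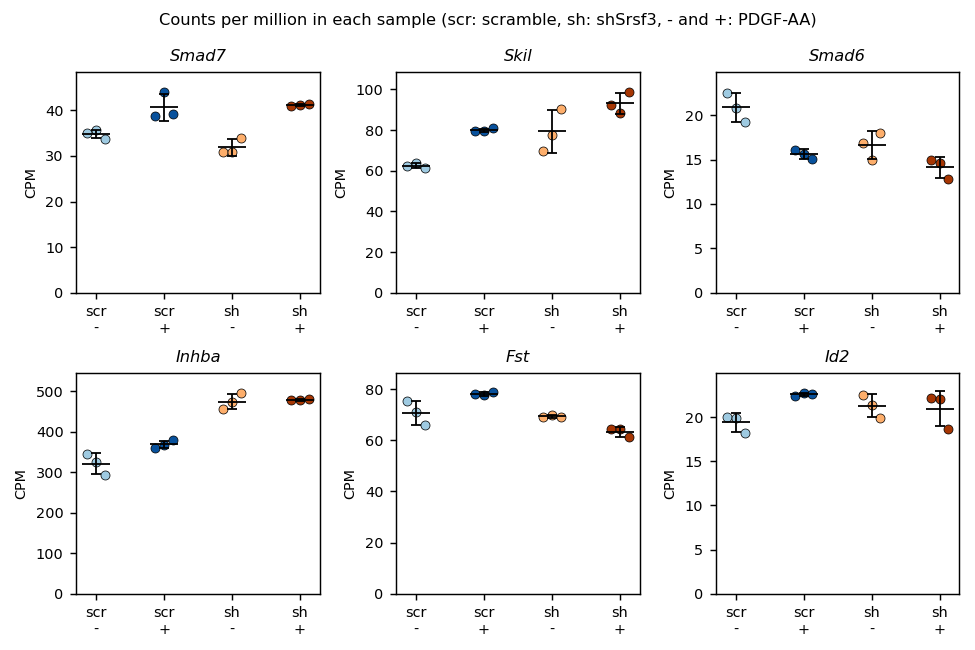
CPM in each of the 12 samples (points) with the group mean and SD (bars) for 4 genes that passed a PDGF-AA comparison (Smad7, Skil, Smad6, Inhba) and for Fst and Id2, on axes that start at 0. Smad7 is higher and Smad6 lower in all stimulated samples than in the unstimulated samples of the same line.

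The interaction test asked whether the response to ligand differed between the lines. No gene of these pathways passed by edgeR, beside 0.0133% of all genes, 6 had an unadjusted p under 0.05, beside 5.54%, and DESeq2 called 1, Fst, beside 0.106%. Fst had the smallest edgeR adjusted p (-0.28 ± 0.065, adjusted p = 0.421). It read 75.5, 70.9 and 66.0 CPM in the scramble samples without ligand and 78.2, 77.6 and 79.1 CPM with it, against 69.1, 70.1 and 69.0 CPM in the shSrsf3 samples without ligand and 64.5, 64.6 and 61.2 CPM with it. In scramble cells the stimulated samples were all higher than the unstimulated ones, and in shSrsf3 cells all lower. EdgeR's adjusted p for Fst was 0.1004 in scramble and 0.344 in shSrsf3 cells, so neither response passed. Without the 3 libraries of lower mapping rate the interaction for Fst passed (-0.38, edgeR adjusted p = 0.0415).

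Beyond these 53 genes, 61 of 84 other genes of the pathways, listed by role, were tested. In the absence of ligand 16 were higher and 16 lower in shSrsf3 samples by edgeR's test, beside 22.2% and 23.7% of all genes, and upon ligand stimulation 13 and 16, beside 20.3% and 20.7%. In the PDGF-AA comparison Vasn, Lrrc32, Thbs1 and Tgif2 were higher and Pdcd4 lower in scramble cells, beside 2.00% and 2.04% of all genes, and Vasn and Tgif2 higher in shSrsf3 cells, beside 0.426%. The Thbs1 call was lost without scramble +PDGF-AA replicate 3 (adjusted p = 0.0577), and the Pdcd4 call without scramble -PDGF-AA replicate 1 or 2 or scramble +PDGF-AA replicate 1 or 3 (0.0584, 0.0781, 0.0829 and 0.0589). The Tgif2 call in shSrsf3 cells was lost without shSrsf3 -PDGF-AA replicate 1 or 3 or shSrsf3 +PDGF-AA replicate 1 or 2 (0.181, 0.0855, 0.113 and 0.129), and that in scramble cells without the 3 libraries of lower mapping rate (0.102). The median log2 fold change between shSrsf3 and scramble was -0.035 and -0.027. In both conditions 3 were DE, and Lrrc32, which presents latent TGF-beta, was DE and higher without ligand. Of all genes 5.75% were DE without ligand and 5.42% with it, and the share DE in both was not computed. Sostdc1, a secreted BMP and Wnt antagonist, had 18 to 34 counts in each scramble sample and 0 to 4 in each shSrsf3 sample, and its log2 fold change was -3.86 ± 0.57 (SE) without ligand and -4.07 ± 0.66 with it, with edgeR adjusted p values of 1.08e-04 and 2.46e-04. Dcn, decorin, a matrix proteoglycan that binds TGF-beta, read 19.6, 19.9 and 18.3 CPM in the scramble samples without ligand and 18.4, 21.9 and 19.5 CPM with it, against 86.7, 83.6 and 82.7 CPM in the shSrsf3 samples without ligand and 75.9, 80.5 and 61.7 CPM with it. The shSrsf3 samples were all far higher, at 2.13 ± 0.087 (SE) without ligand and 1.87 ± 0.087 with it, with edgeR adjusted p values of 6.56e-10 and 2.11e-09. Chrdl1, chordin-like 1, a BMP antagonist, averaged 11.9 ± 0.482 and 12.9 ± 0.608 CPM in scramble and 27.8 ± 0.470 and 26.05 ± 1.74 CPM in shSrsf3 samples, without overlap, at log2 fold changes of 1.22 and 1.01 (edgeR adjusted p = 1.39e-09 and 8.90e-09). Among secreted BMP antagonists, then, Nog and Sostdc1 were lower, Chrdl1 higher and Chrd past the test in neither condition.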

How the data were processed

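Total RNA from iMEPM cells was sequenced as stranded mRNA libraries. Per the study's methods and the labels, the authors quantified transcripts with Salmon 1.4.0 against GENCODE M26 (GRCm39) and summed them per gene with tximport. The deposited table holds these estimated counts for 51490 genes in 12 samples. The strand setting of Salmon is not given in the sources used here, and 34 of the 53 genes overlap an antisense exon. No gene of the list shares over 10% of its 31-base words with another gene.

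Of the table's entries 16.3% were not whole, and all were rounded before low counts were removed (filterByExpr, minimum count 10) and libraries scaled by TMM (factors 0.983 to 1.02). All 12 samples were fitted with edgeR 4.0.16's quasi-likelihood test (R 4.3.3), 1 mean per group and 8 residual degrees of freedom, with Benjamini-Hochberg adjustment over 15037 genes. DE means an adjusted p of 0.05 or less and at least 2-fold. Standard errors are the log2 fold change divided by the root of F. CPM values are TMM-scaled. Gene identifiers, coordinates, lengths, overlaps and promoter windows come from GENCODE M39 (GRCm39). Values in every sample are given for genes that were DE in an shRNA comparison, past the test in a PDGF-AA comparison, or in their role highest in level or smallest in adjusted p without ligand. Other pathway and target genes were named if DE in both shRNA comparisons, others after their values were seen, and some listed genes are not reported here by name. Fst and Klf10 were chosen after their values were seen. The genes, lists and tests were chosen with earlier results of these data known. The scripts were tested on simulated data, and the alternative settings (up to 21 per value), over which the highest adjusted p of a call is given, included DESeq2 1.42.0 and limma 3.58.1.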

Additional observations from a re-analysis of the deposited data

How the results depend on the processing

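Results were recomputed under up to 21 other settings (20 for the interaction, and fewer for genes that a filter removed or DESeq2 gave no adjusted p): other scaling, no low-count filter, DESeq2, limma voom, equal depth, the 6 samples compared only, the replicate block, each library left out and the 3 libraries of lower mapping rate left out. No call of the 51 genes turned direction. Of the 34 genes past the test without ligand 26 remained past it in every setting, and of the 35 with ligand 29. With 1 library left out the count ran from 30 to 35 in each shRNA comparison, and the count of DE genes from 5 to 5 without ligand and from 4 to 6 with it. For PDGF-AA it ran from 1 to 5 in scramble and from 0 to 2 in shSrsf3 cells, with 0 DE genes, and for the interaction from 0 to 0. The scramble count of 4 became 2 with the 6 samples compared only and 7 with DESeq2. The shSrsf3 count of 1 became 2 without the filter and with DESeq2. The interaction count of 0 became 1, Fst, without the filter, without the 3 libraries of lower mapping rate and with DESeq2. The cause of these differences was not tested.

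Samples with the same replicate number showed no clear shared deviation (18 pairs, correlations of -0.14 to 0.20, 2 over 0.1). The 36 pairs that differed in group and number ran from -0.34 to 0.24. Both values over 0.1 joined unstimulated and stimulated scramble samples, of replicates 2 and 3. Such correlations cannot exclude that samples of the same number were handled together, and the main fit did not pair them. Under the replicate block Gdf6 and Bmpr1a lost and Id2 gained a call without ligand (33 genes past the test), and Inhba lost and Id1 and Id2 gained one for PDGF-AA in scramble cells.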

Other observations

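Transcripts that these pathways are known to act on were read as values. Of 15 genes listed as BMP targets outside the Id family, 10 were lower and 4 higher in shSrsf3 samples without ligand by edgeR's test, beside 23.7% and 22.2% of all genes, and 9 and 4 with it, beside 20.7% and 20.3%. Their median log2 fold changes were -0.35 and -0.38, beside -0.016 and -0.010 over all genes. In both conditions 3 were DE, and Msx1 was DE with ligand only. Of all genes 5.75% were DE without ligand and 5.42% with it, and the share DE in both was not computed. Gata3, a transcription factor of the craniofacial mesenchyme, read 19.1, 17.8 and 16.9 CPM in the scramble samples without ligand and 13.4, 16.8 and 13.8 CPM with it, against 6.36, 6.20 and 5.37 CPM in the shSrsf3 samples without ligand and 5.58, 6.29 and 5.47 CPM with it. Its groups did not overlap, at log2 fold changes of -1.57 and -1.34 (edgeR adjusted p = 2.11e-08 and 1.81e-07). Sp7, a transcription factor of bone-forming cells, was rare, at 18 to 106 counts per sample, and higher in shSrsf3 samples by 1.26 and 1.34 (edgeR adjusted p = 0.00470 and 0.00443). Hey1, a transcription factor that BMP and Notch signals induce, had 15 to 37 counts in each scramble and 1 to 10 in each shSrsf3 sample (-2.42 and -3.32, edgeR adjusted p = 3.35e-04 and 2.76e-04).

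Of 20 genes listed as TGF-beta targets, 9 were lower and 4 higher in shSrsf3 samples without ligand and 9 and 3 with it, beside the same shares of all genes. None was DE, beside 5.75% of all genes without ligand and 5.42% with it. Their medians were -0.11 and -0.085. Upon ligand stimulation 4 were higher and 1 lower in scramble cells, beside 2.00% and 2.04% of all genes, and 3 higher in shSrsf3 cells, beside 0.426%. Klf10, an early TGF-beta response gene, read 56.0, 58.6 and 58.6 CPM in the scramble samples without ligand and 151, 157 and 148 CPM with it, against 42.8, 48.8 and 47.2 CPM in the shSrsf3 samples without ligand and 105, 108 and 109 CPM with it. Every stimulated sample was above the unstimulated samples of its line, at log2 fold changes of 1.39 in scramble and 1.22 in shSrsf3 cells (edgeR adjusted p = 3.03e-09 and 2.02e-08). The study names Klf10 among the immediate early genes raised by PDGF-AA. Whether TGF-beta signaling had a part in this rise was not tested. Snai1 and Junb also rose in both lines, but in shSrsf3 cells both calls were lost without shSrsf3 -PDGF-AA replicate 1 (edgeR adjusted p = 0.0512 and 0.0673) or replicate 2 (0.0530 and 0.0644). Of the BMP targets, Dlx3 was higher and Dlx5 lower upon ligand stimulation in scramble cells and none passed in shSrsf3 cells. The Dlx3 call (log2 fold change 1.76, edgeR adjusted p = 0.0391) was lost in 11 of 19 other settings, among them the omission of any single library except scramble +PDGF-AA replicate 2 or shSrsf3 +PDGF-AA replicate 2 or 3 (0.0560 to 0.181), and the Dlx5 call without scramble +PDGF-AA replicate 1 or 3 (0.0556 and 0.0687), without the 3 libraries of lower mapping rate (0.0619) and with the 6 samples compared only (0.0584).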
